A study of Glycine max with 10 samples.

Results

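The genes described here are those whose leaf RNA differed in the same direction in both soybean cultivars, at day 11, between plants that received an inducer population of aphids before biotype 1 and plants that received biotype 1 alone. A gene belonged to this set when its ratio between these libraries was at least 2-fold the same way in both cultivars and its mean over all libraries was at least 5 CPM (read counts relative to library size, scaled with the TMM factors of edgeR). Of 55983 genes, 22023 reached that mean, and 96 of these met the rule. The inducer library was the higher one for 52 of them, called the inducer-high genes below, and the lower one for 44, called the inducer-low genes. The ratios between inducer and biotype 1 alone at day 11 chose the genes. Because the genes were selected on these values, they are given as a description and were not tested.

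The soybean aphid feeds on phloem sap through a stylet, and soybean lines with a Rag gene limit the growth of aphid populations that are avirulent to that gene. A population that feeds first, avirulent or virulent, can improve the same plant for aphids that arrive later, an effect named induced susceptibility. Where the inducer is virulent and the later aphids are avirulent, it is named obviation of resistance. The libraries address which leaf transcripts differ when a virulent inducer is present. The set described here holds the differences that a susceptible and a resistant plant had in common.

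Leaves came from a greenhouse experiment with a susceptible cultivar, LD12-15838R, and a resistant cultivar with Rag1, LD12-15813Ra. Control plants of both cultivars carried no aphids and were sampled at day 1 and day 11. Inducer plants received 50 biotype 2 aphids, which are virulent on Rag1, and 15 biotype 1 aphids, which are not, and were sampled at the same time points. Plants with biotype 1 alone received 15 of these aphids and no inducer, and were sampled at day 11 only. The inducer plants differed from them both in the presence of biotype 2 and in the number of aphids added, which cannot be told apart. RNA of 3 replicates was pooled for each of the 10 libraries, which left 1 library per condition and no check of any difference against replicates. The library totals lay between 23394065 and 25665558 estimated counts, and 3 counts, the limit under which a gene was not detectable, corresponded to between 0.104 and 0.158 CPM. These limits and the intervals below cover counting error only. The identifiers follow the Wm82.a2.v1 annotation, and 0 of 55983 were found in the table of RefSeq genes for Glycine_max_v4.0. No gene names or functions are therefore given, the leaf label was not checked against marker genes, and 2 identifiers in each direction are printed. In RNA from whole leaves, fewer cells of a type and less RNA per cell cannot be told apart.

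The labels of cultivar and day need care. Over 37468 genes with more than 0.5 CPM in at least 1 library, 96 had a gap of at least 8-fold that parted the libraries into 2 sides. In 59 of them the sides were day 11 susceptible with day 1 resistant against the rest, and in 0 of them the 2 labelled cultivars. In another 22 the sides were the same except that the resistant control of day 1 lay on the other side. This library also had the lowest TMM factor, 0.774, and the resistant inducer library of day 1 the highest, 1.16. The rule compares libraries of the same labelled day and cultivar. Of the 96 shared genes 1 was among those with such a gap, beside 96 of all 37468 genes examined. Susceptible and resistant are used below as labels. Ratios at day 1 are given for each cultivar separately, so that those of the susceptible pair stand without the resistant control. Counts over both cultivars and the day 1 test include that control.

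The inducer-high genes were a median of 3.45-fold higher with the inducer in the susceptible cultivar and 2.52-fold higher in the resistant one. On the log2 scale their ratios ranged from 1.02 to 3.30 in the susceptible cultivar, and from 1.03 to 3.27 in the resistant one. The ratio was the larger of the pair in the susceptible cultivar for 39 of the 52. The inducer-low genes were a median of 3.27-fold lower with the inducer in the susceptible cultivar and 3.20-fold lower in the resistant one, with log2 ratios from -7.02 to -1.02 and from -4.07 to -1.01. The susceptible cultivar had the larger of both ratios in 20 of the 44. A difference of at least 4-fold in both cultivars was found for 3 inducer-high and 6 inducer-low genes.

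Shared differences were a small share of all differences between the same libraries. In the susceptible cultivar 1072 genes were at least 2-fold higher with the inducer (4.87% of those measured) and 614 lower (2.79%). In the resistant cultivar 276 were higher (1.25%) and 438 lower (1.99%). The 52 inducer-high genes (0.236% of the 22023) were 4.85% of the genes that were higher in the susceptible cultivar and 18.8% of those in the resistant one. The 44 inducer-low genes (0.2% of the 22023) were 7.17% and 10% of the lower genes. A larger number, 166 of the 22023 genes, passed the same 2-fold limit in opposite directions in the 2 cultivars. Of these 108 were higher with the inducer in the susceptible cultivar and 58 in the resistant one. The numbers of higher and lower genes differed between the cultivars, and neither overlap was tested against them.

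**Figure D1:**
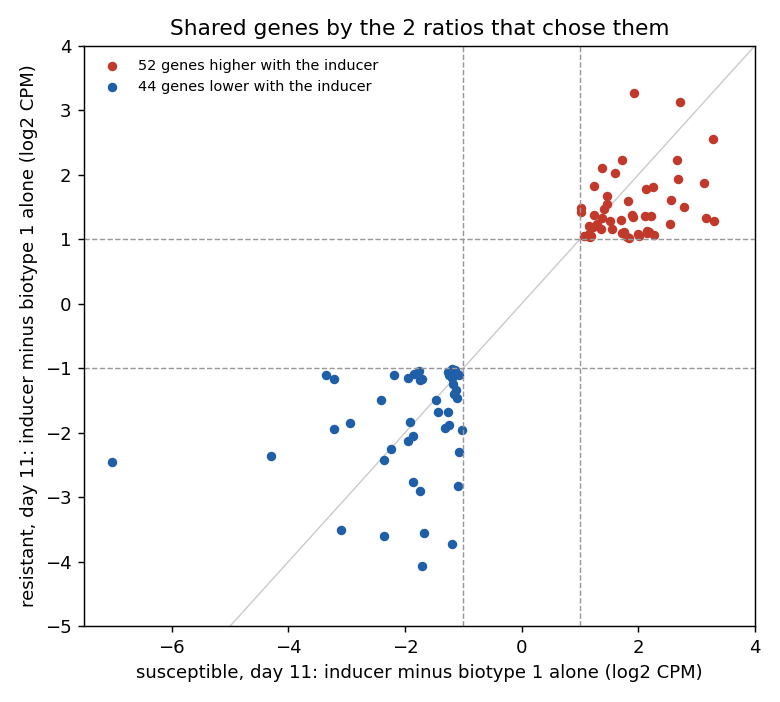
Log2 difference in CPM between the inducer and biotype 1 alone at day 11, in the susceptible cultivar (x axis) and the resistant cultivar (y axis), with 1 point per gene and dashed lines at 2-fold. By the rule all 52 inducer-high genes (red) lie in the upper right corner and all 44 inducer-low genes (blue) in the lower left, and most lie within 4-fold of equality in at least 1 cultivar.

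The shared genes were of moderate abundance. The mean over the 10 libraries had a median of 14.8 CPM for the inducer-high genes, with a range from 5.02 to 449 CPM, and of 9.84 CPM for the inducer-low genes, with a range from 5.06 to 410.4 CPM, against 16.9 CPM over all genes measured. The exact 95% interval of the ratio of counts excluded equal levels in both cultivars for 52 of 52 inducer-high genes and 43 of 44 inducer-low genes. Because the same ratios chose the genes at 2-fold, this follows largely from the rule. It describes counting error and is no test of the genes. The interval lay entirely beyond 2-fold in both cultivars for 27 inducer-high and 16 inducer-low genes. Of the inducer-low genes 6 had 3 counts or fewer in at least 1 of the 4 libraries of the rule, and their log2 ratios depend on the prior count of 2. The 3 genes nearest inside the 2-fold limit, all inducer-low, had a smaller log2 ratio of 1.01 to 1.02 in size, and the 3 nearest outside it, with 2 inducer-high genes and 1 inducer-low gene by direction, had 0.998 to 0.9997.

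The genes were spread over the genome. The chromosome field of the identifiers placed 95 of the 96 on chromosomes and 1 on a scaffold. All 20 chromosomes held at least 1 of them and none held more than 9. Pairs within 10 gene models of each other were found 3 times, on chromosomes 2, 12 and 14, and both genes of each pair were inducer-high. The authors' counting could have split reads among such neighbours if their sequences are near-identical, which was not examined.

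Glyma.06G291900, on chromosome 6, had the largest shared ratio among the inducer-high genes, as measured by the smaller of its log2 ratios. In the susceptible cultivar its level at day 11 was 1.01 CPM in the control, 0.712 with biotype 1 alone and 5.17 with the inducer. In the resistant cultivar these levels were 9.28, 1.39 and 12.8 CPM. Biotype 1 alone was thus the lowest of the 3 in both cultivars, whereas the control was near it in the susceptible cultivar and near the inducer in the resistant one. The log2 ratio of inducer to biotype 1 alone was 2.73 (95% interval of the counts 2.15 to 3.64) in the susceptible cultivar and 3.14 (2.73 to 3.73) in the resistant one. At day 1 the order was different, with 26.2 CPM in the susceptible control against 2.24 with the inducer, and 9.09 CPM in the resistant control against 1.95 with the inducer. At day 1 the gene was 11.7-fold lower with the inducer in the susceptible cultivar and 4.65-fold lower in the resistant one.

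Glyma.02G054200, on chromosome 2, was the second inducer-high gene by the same measure and was detected well above the limit in every library. In the susceptible cultivar its level at day 11 was 19.2 CPM in the control, 8.36 with biotype 1 alone and 82.2 with the inducer. In the resistant cultivar it was 72.9, 24.5 and 144 CPM in that order. Both cultivars had biotype 1 alone at the bottom and the inducer at the top. The log2 ratios between these were 3.29 (3.10 to 3.50) and 2.55 (2.44 to 2.68). At day 1 the controls had 92.6 CPM in the susceptible and 70.6 in the resistant cultivar, and the inducer libraries 35.2 and 40.2, so that both inducer libraries lay below both controls. It is also 1 of the neighbouring pair on chromosome 2.

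Glyma.17G212200, on chromosome 17, led the inducer-low genes. In the susceptible cultivar its level at day 11 was 339 CPM in the control, 112 with biotype 1 alone and 13.1 with the inducer. In the resistant cultivar it was 0.848 CPM in the control, 9.16 with biotype 1 alone and 0.727 with the inducer. The control was therefore the highest library in the susceptible cultivar, while in the resistant one the control and the inducer were close and biotype 1 alone stood above both. The log2 ratio of inducer to biotype 1 alone was -3.09 (-3.28 to -2.92) in the susceptible and -3.51 (-4.37 to -3.01) in the resistant cultivar. At day 1 the inducer libraries had 26.0 and 28.9 CPM and the controls 2.77 and 4.68, in the susceptible and the resistant cultivar respectively. The inducer libraries of day 1 were thus 9.39-fold and 6.18-fold higher than their controls.

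Glyma.13G022300, on chromosome 13, was the second inducer-low gene by log2 ratios that depend on the prior count. Its mean over the 10 libraries was 5.54 CPM, near the limit of 5 CPM, and the resistant control of day 1 was its highest library. It had 10.5 CPM with biotype 1 alone at day 11 in the susceptible cultivar and 0 counts with the inducer, which makes it at least 76.9-fold lower with the inducer when 3 counts per library are taken as the limit. In the resistant cultivar it had 0.365 CPM with biotype 1 alone, or 10 counts, and 0 counts with the inducer, at least 3.51-fold lower. The day 11 controls had 2.85 CPM in the susceptible cultivar and 0 counts in the resistant one. At day 1 the susceptible libraries had 4 counts in the control and 5 with the inducer, and the resistant libraries 32.8 CPM in the control and 8.53 with the inducer. Its level at day 1 was therefore high in the resistant pair and near the limit in the susceptible pair, unlike the other 3 genes, whose controls at day 1 were within 3-fold of each other.

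**Figure D2:**
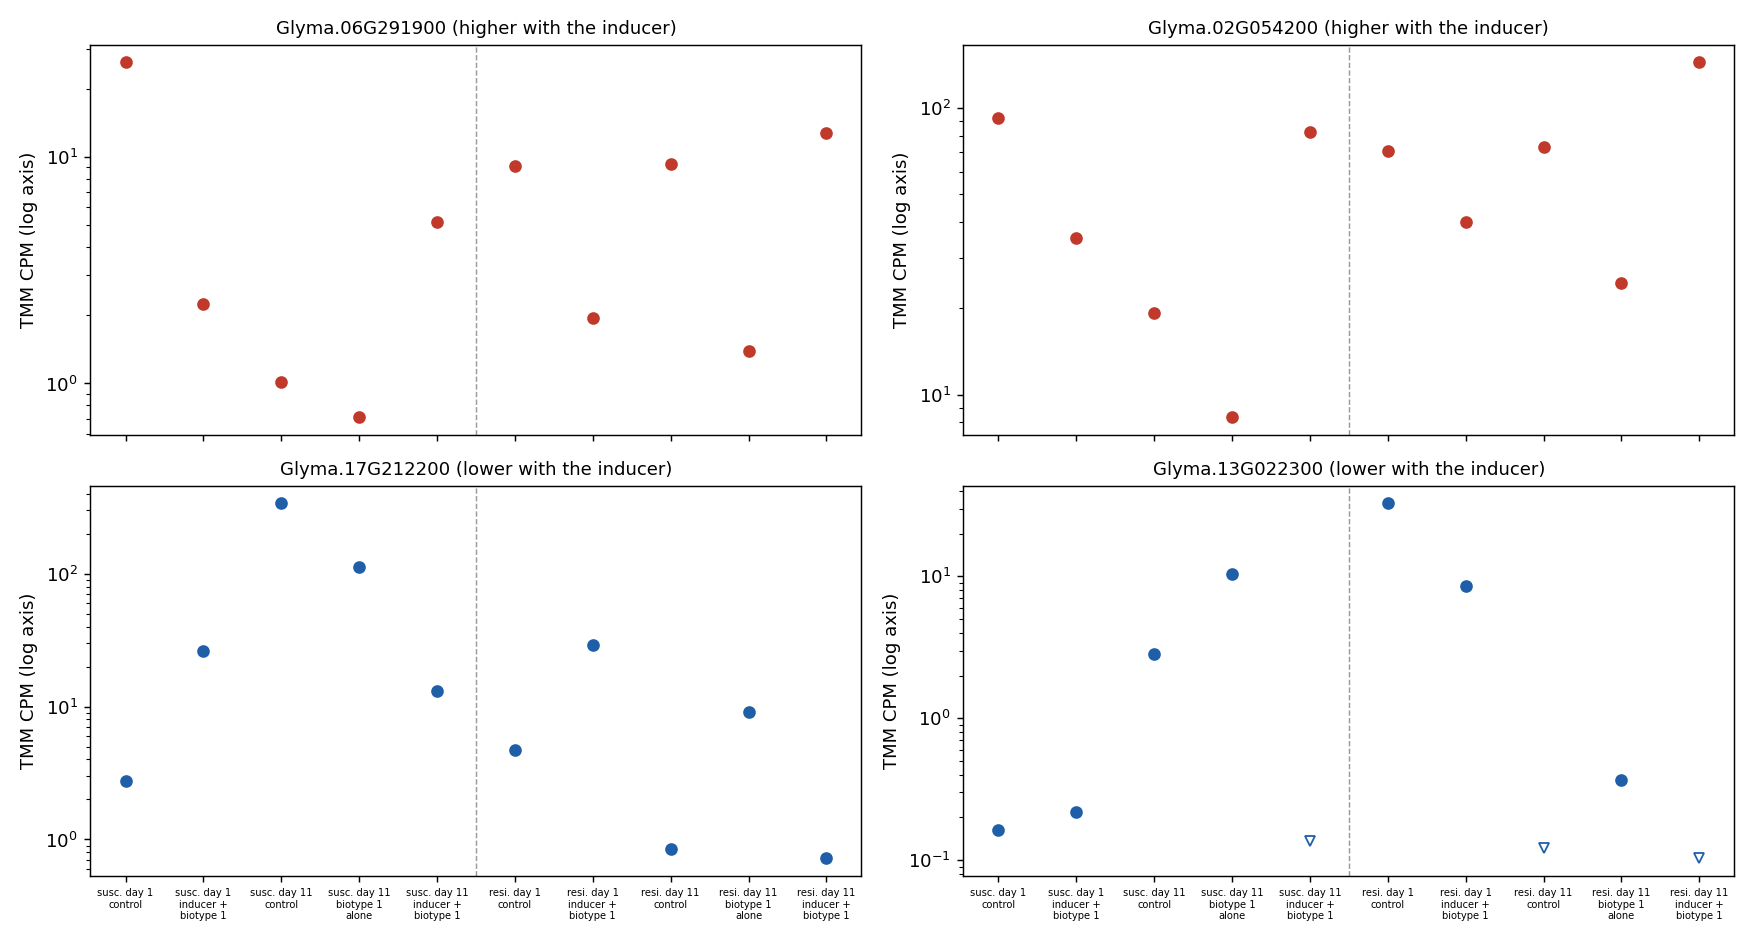
Level in TMM-scaled CPM on a log axis of the 2 leading inducer-high genes (red) and the 2 leading inducer-low genes (blue) in each of the 10 libraries, 1 point per library, with open triangles at the limit of 3 counts where the count was 0. Glyma.06G291900 is at 0.712 CPM with biotype 1 alone in the susceptible cultivar, and Glyma.17G212200 reaches 339 CPM in the susceptible control of day 11.

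The day 11 controls entered the rule only through the mean CPM and the TMM factors. They place most of the shared differences differently in the 2 cultivars. These comparisons share the inducer and biotype 1 libraries with the rule and are therefore given as counts without a test. Among the 52 inducer-high genes, the inducer library was at least 2-fold above the control for 36 in the susceptible cultivar (5.80% of all genes measured) and for 6 in the resistant one (1.58%). Biotype 1 alone was at least 2-fold below the control for 16 in the susceptible cultivar (6.93% of all genes) and for 33 in the resistant one (3.41%). The medians of inducer against control were 1.46 and 0.25 on the log2 scale, and those of biotype 1 alone against control -0.44 and -1.16, in the susceptible and resistant cultivar. By these medians, the inducer library was the one farther from its own control in the susceptible cultivar, and biotype 1 alone in the resistant one. The single controls themselves differed, with medians of -0.97 in the susceptible and 0.62 in the resistant cultivar, as log2 distance from the gene's mean over all libraries. On that scale the inducer libraries had 0.24 and 0.87, and biotype 1 alone -1.58 and -0.59. The part of the controls in this contrast was not tested. The order inducer, control, biotype 1 from high to low held for 34 of the 52 in the susceptible cultivar and 33 in the resistant one. The rule set inducer above biotype 1, so only the place of the control was free, and no share over all genes is given.

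The inducer-low genes also differed between the cultivars in where the control lay. The inducer library was at least 2-fold below the control for 39 of the 44 in the susceptible cultivar (3.95% of all genes) and for 25 in the resistant one (5.61%), with medians of -2.52 and -1.07. Biotype 1 alone was below the control for 32 of the 44 in the susceptible cultivar (10830 of all 22023 genes), by at least 2-fold for 20 (6.93%). In the resistant cultivar it was above the control for 38 (10411 of all 22023 genes), by at least 2-fold for 16 (0.917%). Its medians against the control were -0.81 and 0.82. Of the 166 genes of opposite direction, 61 had the inducer library at least 2-fold below the control in the susceptible cultivar and 91 in the resistant one. For biotype 1 alone, 73 of them were at least 2-fold below the susceptible control and 20 at least 2-fold above the resistant one. The rule set inducer below biotype 1, so only the place of the control was free in the following orders, given without a share over all genes. In the susceptible cultivar the order control, biotype 1, inducer from high to low held for 32 of the 44. In the resistant cultivar the order biotype 1, control, inducer also held for 32. Both infested susceptible libraries therefore lay below the control for most of these genes, whereas the resistant control lay between its infested libraries.

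The place of each library against the control was also taken over both cultivars, in values that share the inducer and biotype 1 libraries with the rule. The inducer library was above the control in both for 31 of the 52 inducer-high genes (31.5% of all genes measured), at least 2-fold for 3 (0.218%), and biotype 1 alone was below it in both for 38 (30.3%), at least 2-fold for 12 (0.695%). For the inducer-low genes the inducer library was below the control in both cultivars for 36 of the 44 (26.7%), at least 2-fold for 22 (0.677%). A stricter count asked for only 1 of these libraries to be apart from the control. For 3 inducer-high and 6 inducer-low genes the inducer library was at least 2-fold from the control in both cultivars while biotype 1 alone was within 2-fold of it. For 6 inducer-high and 0 inducer-low genes biotype 1 alone was the library apart in both cultivars, with the inducer within 2-fold of the control. Over all genes measured the share with the inducer apart was 0.0681% upwards and 0.109% downwards, and the share with biotype 1 apart was 0.059% below the control and 0% above it. The other 43 inducer-high and 38 inducer-low genes met none of these definitions in both cultivars at once.

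**Figure D3:**
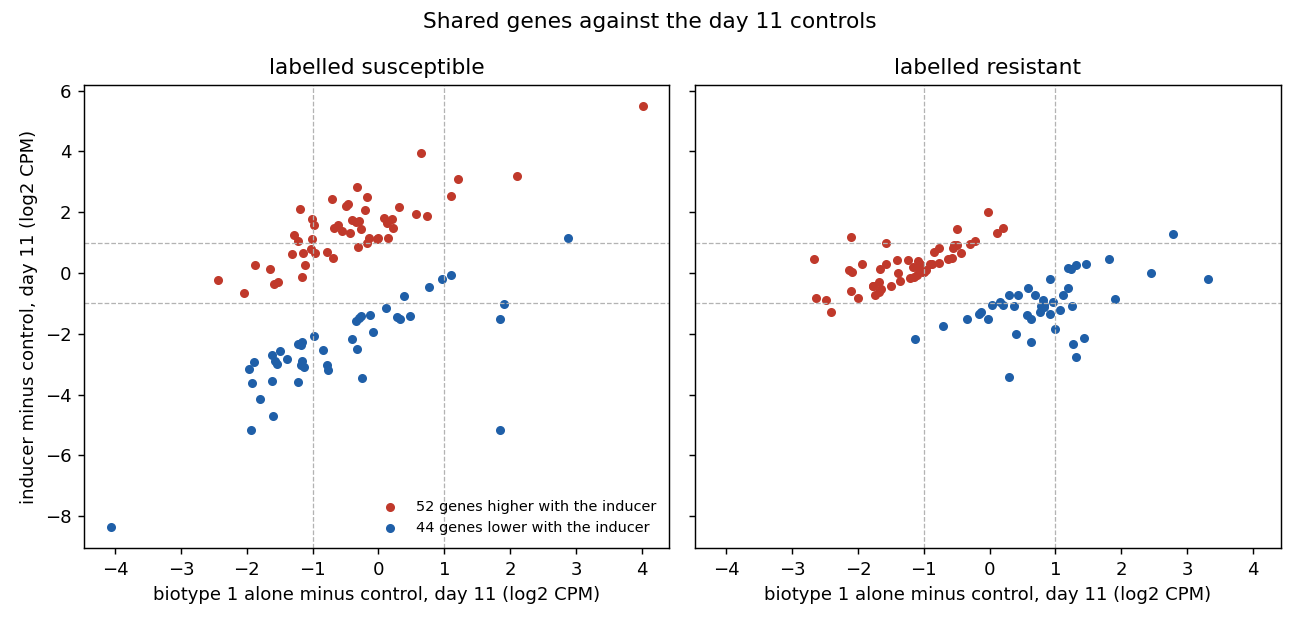
Log2 difference in CPM from the control of day 11 for biotype 1 alone (x axis) and for the inducer (y axis), in the susceptible (left) and resistant (right) cultivar, 1 point per gene with dashed lines at 2-fold. Inducer-high genes (red) lie above the upper line for 36 of 52 in the susceptible and 6 of 52 in the resistant cultivar, and inducer-low genes (blue) lie below the lower line for 39 and 25 of 44.

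The libraries of day 1 were not used by the fold ratios and give a separate comparison, the inducer against the control in each cultivar. They did enter the mean of at least 5 CPM, so a gene high in a day 1 library passed that limit more easily. The day 1 values are therefore not fully independent of the choice of genes. The inducer-high genes of day 11 were lower with the inducer at day 1, by a median of 1.45 on the log2 scale (2.73-fold) in the susceptible cultivar and 0.80 (1.74-fold) in the resistant one, against medians of -0.01 and -0.07 over all genes. Of the 52, 40 were lower in both cultivars, 0 were higher in both and 12 differed in sign, where 22.2% of all genes were lower in both and 18.2% higher in both. At least 2-fold lower were 34 in the susceptible cultivar (4.24% of all genes), 21 in the resistant one (18.1%) and 17 in both (1.24%). At least 2-fold higher were 1 in the susceptible (3.24%) and 4 in the resistant cultivar (10.6%). The susceptible control of day 1 was the highest of all 10 libraries for 26 of the 52. As log2 distance from the gene's mean, the susceptible controls had medians of 1.31 at day 1 and -0.97 at day 11. The susceptible inducer libraries had -0.15 and 0.24. The part of the single susceptible control in the day 1 ratios was not tested.

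The inducer-low genes had the reverse tendency at day 1. Their median ratio of inducer to control was 0.76 on the log2 scale (1.69-fold higher) in the susceptible cultivar and 1.10 (2.14-fold higher) in the resistant one. Of the 44, 20 were higher in both cultivars, 1 was lower in both and 23 differed in sign. Of all genes 18.2% were higher in both and 22.2% lower in both, so most genes measured also differed in sign. At least 2-fold higher were 19 in the susceptible cultivar (3.24%), 23 in the resistant one (10.6%) and 9 in both (0.277%). In the resistant pair 14 of the 44 were at least 8-fold higher (1.21% of all genes), and 8 were at least 2-fold lower (18.1% of all genes). That pair contains the resistant control of day 1, and the part of that library in these values was not tested. As log2 distance from the gene's mean, the susceptible controls had medians of -0.85 at day 1 and 2.16 at day 11. The susceptible inducer libraries had -0.06 and -0.13. The part of the susceptible control of day 1 was not tested either.

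The day 1 difference was tested with edgeR's quasi-likelihood test over the 4 libraries of day 1, with cultivar as a covariate and the 2 cultivars as the repeats of the contrast. The resistant control of day 1 was among these libraries, so neither this test nor DESeq2 stands without it. At a Benjamini-Hochberg adjusted value under 0.05 it called 0 of 22023 genes, and 0 of the 96 shared genes. At an unadjusted p under 0.05 it had 374 lower genes (1.70% of all) and 116 higher genes (0.527%). Of the inducer-high genes 19 of 52 were among the lower and 0 among the higher ones, and of the inducer-low genes 11 of 44 were among the higher and 0 among the lower ones. DESeq2 on the same libraries called 50 genes (0.227%), of which 9 were higher and 41 lower, and these included 3 inducer-high genes, all lower at day 1, and 2 inducer-low genes, both higher. Among these 5 were Glyma.06G291900, with a log2 difference of -2.85 (standard error 0.68, DESeq2 adjusted value 0.0205, and 1.00 in edgeR), and Glyma.17G212200, with 2.97 (standard error 0.63, DESeq2 adjusted value 0.00307, and 1.00 in edgeR). Glyma.02G054200 and Glyma.13G022300 were not called by either tool, with log2 differences of -1.07 and -1.16 in edgeR.

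**Figure D4:**
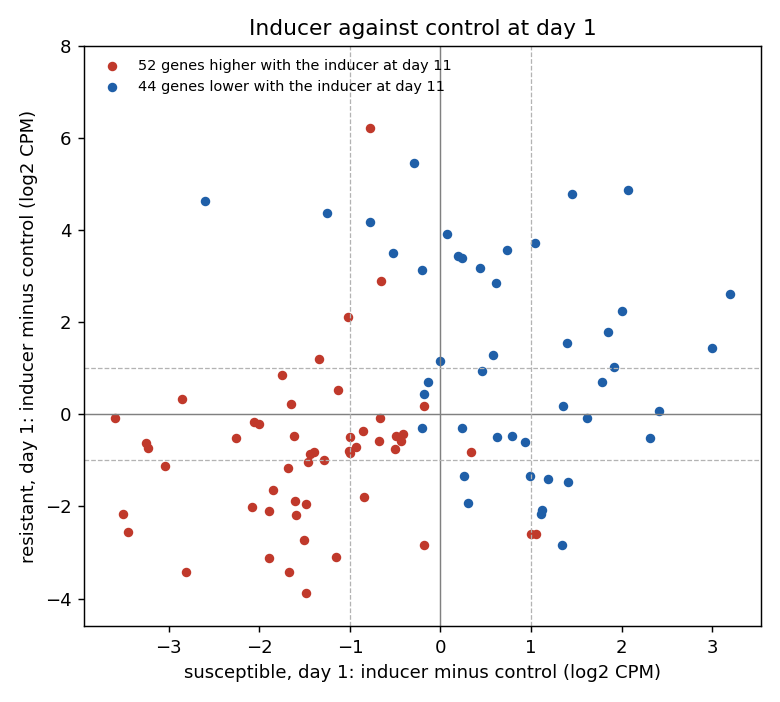
Log2 difference in CPM between inducer and control at day 1 in the susceptible (x axis) and resistant (y axis) cultivar, with solid lines at equality, dashed lines at 2-fold and 1 point per gene. Of the 52 inducer-high genes (red) 40 lie in the lower left part. Of the 44 inducer-low genes (blue) 20 lie in the upper right and 23 differ in sign, as did most genes measured.

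The aphid-free controls also differed for most of these genes. The susceptible control of day 11 was below the resistant one for 48 of the 52 inducer-high genes (11730 of all 22023 genes). The difference was at least 2-fold for 38 (10.6% of all genes). It was above the resistant one for 42 of the 44 inducer-low genes (10293 of the 22023). Of these 39 were at least 2-fold higher (8.55%) and 24 at least 8-fold higher (1.24%). Between the susceptible controls, day 11 was lower than day 1 for 51 inducer-high genes (11522 of the 22023), at least 2-fold for 46 (11.1%). Day 11 was higher for 41 inducer-low genes (10501 of the 22023), at least 2-fold for 38 (7.11%). Between the resistant controls the inducer-high genes had no common direction, with 30 higher and 22 lower at day 11 and a median log2 ratio of 0.10. Of the 44 inducer-low genes 37 were lower at day 11 (10893 of the 22023), at least 2-fold for 18 (2.84%). These comparisons cross labelled day or cultivar, and differences of day, of cultivar and of labelling cannot be told apart here.

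Over the 6 libraries that the fold rule did not use, the shared genes varied more than most genes. These libraries entered the mean of at least 5 CPM, which a high value in any of them could help a gene to pass. The distance between the highest and the lowest of these libraries had a median of 7.33-fold for the inducer-high and 13.0-fold for the inducer-low genes, against 1.91-fold over all genes, and it was at least 4-fold for 39 of 52 (75.0%), 38 of 44 (86.4%) and 12.8% of all genes. They also varied together. Pearson's r of a gene with the mean profile of the other inducer-high genes, over 6 libraries, had a median of 0.88 and was at least 0.8 for 34 of 52 (65.4%), against 8.36% of all genes. For the inducer-low genes and their own profile the median was 0.91, with 28 of 44 (63.6%) at 0.8 or above, against 9.54% of all genes. The profiles of the 2 sets were close to mirror images, with r = -0.92 between them. These correlations rest on few libraries, and without the susceptible control of day 11 the median for the inducer-low genes was 0.78, with 19 at 0.8 or above, while that for the inducer-high genes was 0.85, with 33.

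Across all 10 libraries the inducer-high genes were highest in the susceptible control of day 1 for 26 of 52, with a median of 1.31 above the gene's own mean on the log2 scale, and lowest with biotype 1 alone in the susceptible cultivar for 32, with a median of 1.58 below it. The inducer-low genes were highest in the susceptible control of day 11 for 32 of 44, with a median of 2.16 above the mean, and lowest with the inducer in the resistant cultivar at day 11 for 32, with a median 2.15 below it. For the inducer-high genes the medians were 0.24 and 0.87 with the inducer and -1.58 and -0.59 with biotype 1 alone, in the susceptible and resistant cultivar, beside 1.31 and 0.52 in the controls of day 1. For the inducer-low genes of the susceptible cultivar the medians were -0.13 with the inducer, 1.68 with biotype 1 alone and -0.85 in the control of day 1. In the resistant cultivar they were -2.15, -0.14 and -0.23, so that there biotype 1 alone was the closer one to the control of day 1, while in the other 3 cases it was the inducer. Since the rule set the order of inducer and biotype 1 alone, these distances describe the genes and carry no test. The counts of highest and lowest library are given without a share over all genes. The mean of at least 5 CPM was taken over the same 10 libraries, so a high value in any of them could help a gene to pass.

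**Figure D5:**
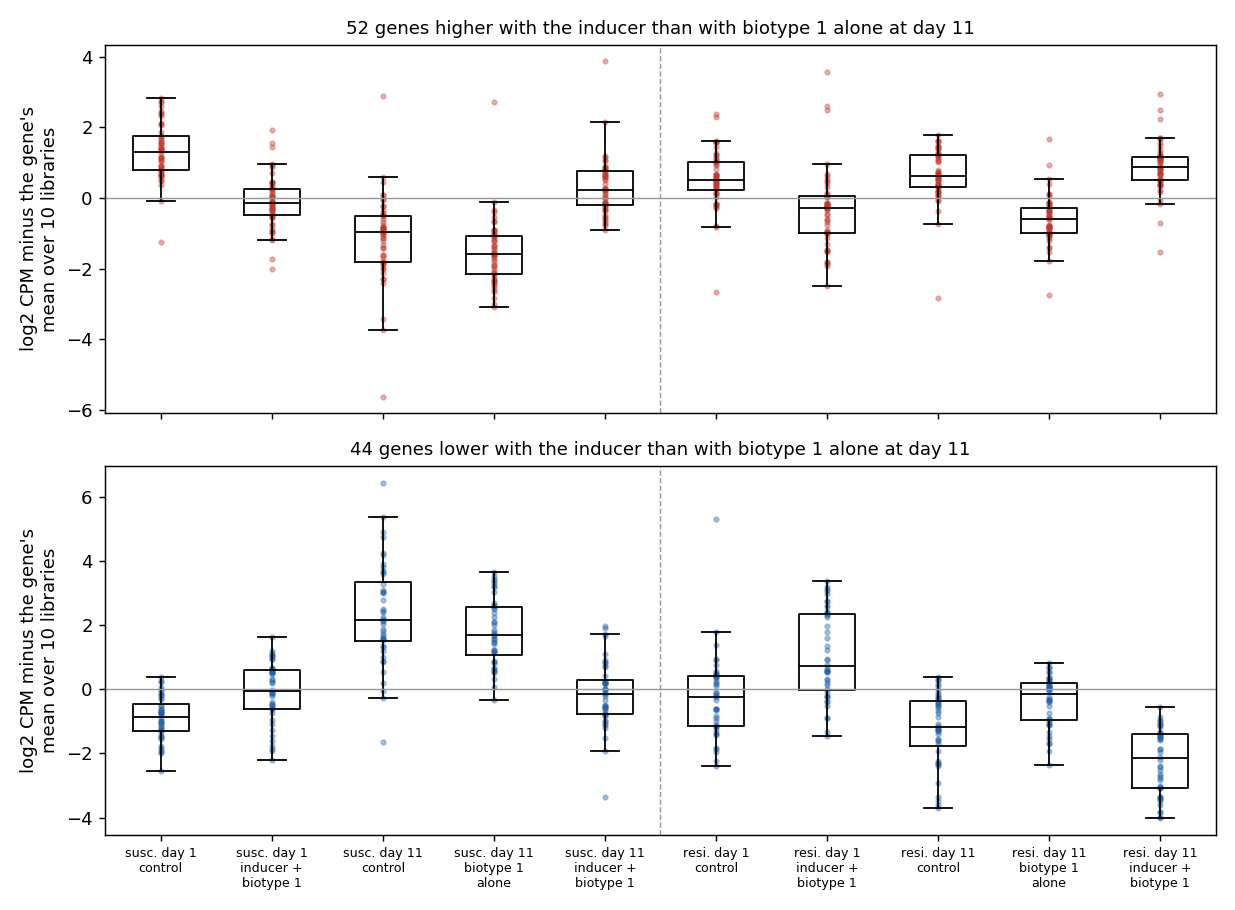
Log2 CPM minus the gene's mean over the 10 libraries for the 52 inducer-high genes (top) and the 44 inducer-low genes (bottom), 1 point per gene and library, with boxes for the quartiles, the line for the median and whiskers to the last point within 1.5 box lengths. The dashed line parts the susceptible libraries (left) from the resistant ones (right), and the susceptible control of day 1 has the highest median of the inducer-high genes, 1.31, and that of day 11 the highest of the inducer-low genes, 2.16.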

How the data were processed

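Leaf RNA was measured in 10 RNA-seq libraries, each pooled by the authors from 3 replicates before a stranded library preparation. The authors trimmed reads with Trimmomatic 0.36, quantified them with Salmon 0.9.1 against the Wm82.a2.v1 primary transcripts and deposited estimated counts per gene, not scaled for library size or length. Salmon divides reads that fit several transcripts among them. Salmon's options were not given in the sources used here.

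All estimated counts were rounded to whole numbers. Log2 CPM was computed with edgeR 4.0.16 in R 4.3.3 (TMM, prior count 2), and genes were kept from a mean of 5 CPM upwards. The ratios of the 4 libraries with biotype 1 at day 11 chose the genes from those kept by the mean over all libraries. The other libraries placed the chosen genes. Inducer against control at day 1 was tested with edgeR's quasi-likelihood test (cultivar as covariate, robust estimation, Benjamini-Hochberg adjustment over all kept genes, 1 residual degree of freedom), with DESeq2 1.42.0 as an alternative. Intervals of ratios are exact binomial ones at 95%. Figures were drawn with matplotlib 3.10.9.

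The set and its rule were chosen with earlier results of these data known. Named genes were the 10 leading ones in each direction by the smaller of both ratios, of which 2 each are printed, since 0 identifiers matched the reference table. Gene lists by annotation keyword, marker lists and promoter motifs were not run for the same reason. Alternatives covered normalization, the CPM and fold limits, the prior count, the tool, the libraries in the fit and each day 1 library left out in turn.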

Additional observations from a re-analysis of the deposited data

Results flagged for a closer look

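Several values had opposite signs in the 2 labelled cultivars under the same comparison. Each rests on 1 library per condition, and the difference between the cultivars was not tested. Biotype 1 alone against control at day 11 had a median log2 ratio of -0.81 in the susceptible and 0.82 in the resistant cultivar over the inducer-low genes, and for Glyma.17G212200 it was -1.60 and 3.31. Day 11 against day 1 in the controls had a median of -2.33 in the susceptible and 0.10 in the resistant cultivar over the inducer-high genes, and 3.10 and -0.87 over the inducer-low genes. The same comparison gave 6.89 and -2.36 for Glyma.17G212200, and 3.58 and -8.66 for Glyma.13G022300, whose resistant control of day 11 had 0 counts, so that the last value depends on the prior count.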

How the results depend on the processing

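The number of shared genes depended mostly on the limits. It was 89 inducer-high and 128 inducer-low genes at a mean of at least 1 CPM, 38 and 22 at 10 CPM, 262 and 167 at 1.5-fold, and 12 and 15 at 3-fold. DESeq2 size factors kept 50 of the 52 and 44 of the 44, and library totals without TMM factors 41 of each. The genes of opposite direction outnumbered the shared ones at 2-fold under each of these scalings (167 with DESeq2 size factors and 157 with library totals). The place against the day 11 controls was a count of few genes: with limits of 1.5-fold and 3-fold, the inducer was apart for 5 and 0 inducer-high genes, and biotype 1 alone for 2 at 3-fold. For inducer-low genes the inducer was apart for 2 and biotype 1 alone for 1 at 1.5-fold.

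At day 1, edgeR with library totals, chosen after seeing the data, called 8 genes and DESeq2 called 50, with 3 inducer-high and 2 inducer-low genes among them. Library totals moved the median of all genes at day 1 to -0.22 in the susceptible and 0.52 in the resistant pair. On that scale 29 inducer-high genes were lower in both cultivars and 23 inducer-low genes higher in both. Leaving out each day 1 library in turn left 1 cultivar, and the median then ranged from -1.45 to -0.80 for the inducer-high and from 0.76 to 1.10 for the inducer-low genes, with no test. Cultivar was a covariate in the day 1 test. No paired analysis was possible because the labels give no replicate numbers to pair libraries by within a cultivar, where each condition had 1 library.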

Other observations

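The 1 shared gene with a gap of at least 8-fold between libraries lies on chromosome 10 and is inducer-high. It belonged to the 22 genes for which the resistant control of day 1 lay on the other side. In the resistant cultivar at day 11 it had 1.09 CPM with biotype 1 alone and 2.63 with the inducer, both on the low side of the gap. Its level was 57.8, 51.0 and 114 CPM in the susceptible control, biotype 1 alone and inducer libraries of day 11 and 92.0 CPM in the resistant inducer library of day 1, and between 1.01 and 3.22 CPM in the other 6.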
